A study of Drosophila melanogaster with 3 samples.

Results

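The genes that encode heat shock proteins and chaperones of Drosophila melanogaster were examined for binding by Cycle, a transcription factor of the circadian clock. The set holds the protein-coding genes whose symbol begins with Hsp, Hsc70, DnaJ-, CCT and a digit, or Droj, plus Hsf, the gene of the heat shock transcription factor. By this rule 37 of 13945 protein-coding genes on the 6 chromosome arms were members: 13 inducible, 18 constitutive, 5 mitochondrial and Hsf itself. Binding was measured by chromatin immunoprecipitation and sequencing (ChIP-seq) on whole animals at the white prepupa stage, when the puparium has just formed and is not yet tanned. The transgenic line stably expressed Cycle with GFP at its C terminus, and GFP was the target of the antibody. Males and females were pooled, the clock time of collection was not given in the sources used here, and the 3 samples were biological replicates of a single group. A peak in whole animals averages over all tissues, and a peak confined to few cells cannot be told apart from weak binding in many.

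Chaperones hold or refold other proteins. Heat and other stress switch on the inducible ones through Hsf, which binds repeats of the short unit GAA and its reverse complement, while the constitutive ones (the Hsc70 proteins, the J-domain proteins that hand clients to them, Hsp90 and the ring-shaped CCT chaperonin) serve growing cells all the time. The small heat shock protein genes lie side by side on arm 3L and are also switched on in unstressed animals around the time of puparium formation by the steroid hormone ecdysone. Cycle is known for its partnership with Clock at the E-box, the sequence CACGTG.

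Sequences are shown for 4 summits and for a promoter of the Hsp70 family that had no peak. Hsp27 is shown as the strongest site of all members, and Hsp26, Hsc70-4 and DnaJ-H because their summits hold pairs of heat shock units, which only 4 of the 16 thresholded summits of members do. This choice was made after the values were seen, and these windows do not stand for the members' sites in general: Hsc70-5 and Hsp83, not printed, ranked above all of them except Hsp27, and the Hsc70-5 summits hold no such pair. All are from the NCBI RefSeq sequence of the Release 6 (dm6) assembly, written 5′ to 3′ on the strand of the gene. Capitals mark pairs of heat shock units, GAANNTTC or TTCNNGAA, where N is any base. The Hsp27 window (3L:9383822-9384022, plus strand) spans 100 bp on either side of the summit, as do those of Hsc70-4 (3R:15242407-15242607, plus strand) and DnaJ-H (2L:13165106-13165306, minus strand). The Hsp26 window (3L:9377428-9377613, minus strand) stops at the base before the gene start, and the Hsp70Aa window (3R:11956545-11956745, minus strand) holds the 201 bases before the start.
Hsp27: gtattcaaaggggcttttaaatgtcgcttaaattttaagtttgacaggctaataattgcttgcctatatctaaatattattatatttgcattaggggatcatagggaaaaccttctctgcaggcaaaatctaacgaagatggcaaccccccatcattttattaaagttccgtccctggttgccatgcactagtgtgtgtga
Hsp26: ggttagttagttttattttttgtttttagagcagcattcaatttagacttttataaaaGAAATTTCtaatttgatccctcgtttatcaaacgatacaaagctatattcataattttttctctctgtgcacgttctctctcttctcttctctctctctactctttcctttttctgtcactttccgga
Hsc70-4: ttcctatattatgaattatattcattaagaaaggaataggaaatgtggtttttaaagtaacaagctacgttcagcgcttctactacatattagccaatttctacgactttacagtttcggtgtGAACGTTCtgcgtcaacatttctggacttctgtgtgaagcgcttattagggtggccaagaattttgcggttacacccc
DnaJ-H: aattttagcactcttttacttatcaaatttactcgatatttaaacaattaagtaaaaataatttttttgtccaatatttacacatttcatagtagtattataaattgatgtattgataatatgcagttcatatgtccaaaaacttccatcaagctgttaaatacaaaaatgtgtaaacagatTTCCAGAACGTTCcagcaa
Hsp70Aa: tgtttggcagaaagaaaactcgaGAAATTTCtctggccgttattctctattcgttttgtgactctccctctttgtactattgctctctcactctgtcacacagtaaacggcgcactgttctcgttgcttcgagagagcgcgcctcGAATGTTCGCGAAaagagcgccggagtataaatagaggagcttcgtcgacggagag

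None of these 5 stretches holds CACGTG. The Hsp27 stretch, under the strongest peak of all members, also holds no pair of heat shock units. The Hsp70Aa stretch, with no peak in any list, holds 2 matches to GAANNTTC and 1 to TTCNNGAA. The DnaJ-H stretch holds 1 of each, overlapping, and Hsp26 and Hsc70-4 hold 1 match to GAANNTTC each.

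The deposited lists give for each peak a signal, which is the authors' own value against a single control alignment, and a summit. The thresholded list holds the 7227 peaks kept by the irreproducible discovery rate, a measure of agreement between replicates. Its signals ran from 110 to 5705 with a median of 212. The pooled list holds 29484 peaks down to a signal of 24.0, and the replicate lists hold 30000, 30000 and 29999 peaks, background regions included. Thresholded summits of members had the same rank in the pooled list, down to rank 7130, so up to there the thresholded list follows pooled signal. A peak in it need not recur in every replicate, and that of CCT3 had no overlapping peak in replicate 1. These lists give no read counts, so the depth is unknown. Genes with a thresholded summit no more than 1 kb from a transcript start are called bound.

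Chaperone genes were bound about as often as other genes. Of the 37 members, 14 were bound, or 37.8% (exact Clopper-Pearson 95% interval 22.5 to 55.2%), against 28.6% of all protein-coding genes. The background lies inside that interval. In the pooled list 25 members had a summit, or 67.6% (50.2 to 82.0%), against 55.4% of all genes. The lists of replicates 1, 2 and 3 held a summit for 16, 26 and 25 members, or 43.2, 70.3 and 67.6%, where 46.1, 58.9 and 58.1% of all genes had one. Shares this near to the background are not a result about chaperones. The intervals cover counting error only, and they treat genes as independent although neighbours and copies are among them.

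In the thresholded list the classes did not differ beyond their intervals. Of the inducible members 4 of 13 were bound, or 30.8% (9.09 to 61.4%). Of the constitutive members 8 of 18 were bound, or 44.4% (21.5 to 69.2%), and of the mitochondrial members 2 of 5, or 40.0% (5.27 to 85.3%). These 3 intervals overlap widely, and all of them hold the background share. Hsf was not bound.

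The pooled list gave another picture for the constitutive genes. There 15 of 18 had a summit, or 83.3% (58.6 to 96.4%), and the 55.4% of all genes lies just below that interval. In the same list 7 of 13 inducible members had one, or 53.8% (25.1 to 80.8%), and 3 of 5 mitochondrial members, or 60.0% (14.7 to 94.7%), so the intervals of the classes still overlap. The constitutive share was 38.9% (17.3 to 64.3%) in replicate 1, against 46.1% of all genes, and 83.3% in both replicate 2 and replicate 3, against 58.9 and 58.1%. It was thus higher than the background in replicates 2 and 3 and not in replicate 1. These shares were not tested, and the intervals assume independent genes. Constitutive members also have more starts, 1.89 per gene on average against 1.41 over all genes, and each start adds a window for a summit. The pooled list was not counted with 1 start per gene. Among the inducible genes, all 6 members of the small heat shock protein cluster on arm 3L had a pooled summit, the 6 Hsp70 copies had none, and Hsp68 had one. The Hsp70 copies resemble each other closely and are not 6 separate cases.

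The bound members covered a wide range of signal. Relative signal is the signal of the replicate's own peak under a thresholded peak, divided by the median of that quantity in the replicate, so that 1 is a typical thresholded peak. It ran among the 14 bound members from 0.536 to 13.7 with a median of 1.17, and over all 3984 bound genes the median was 1.14. The median distance of the strongest summit from the nearest start was 160 bp in members and 174 bp in all bound genes. The summit lay upstream of that start in 12 of 14 members, or 85.7%, against 83.7%. Members thus had summits where other bound genes have them, most of them just ahead of the start.

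**Figure D1:**
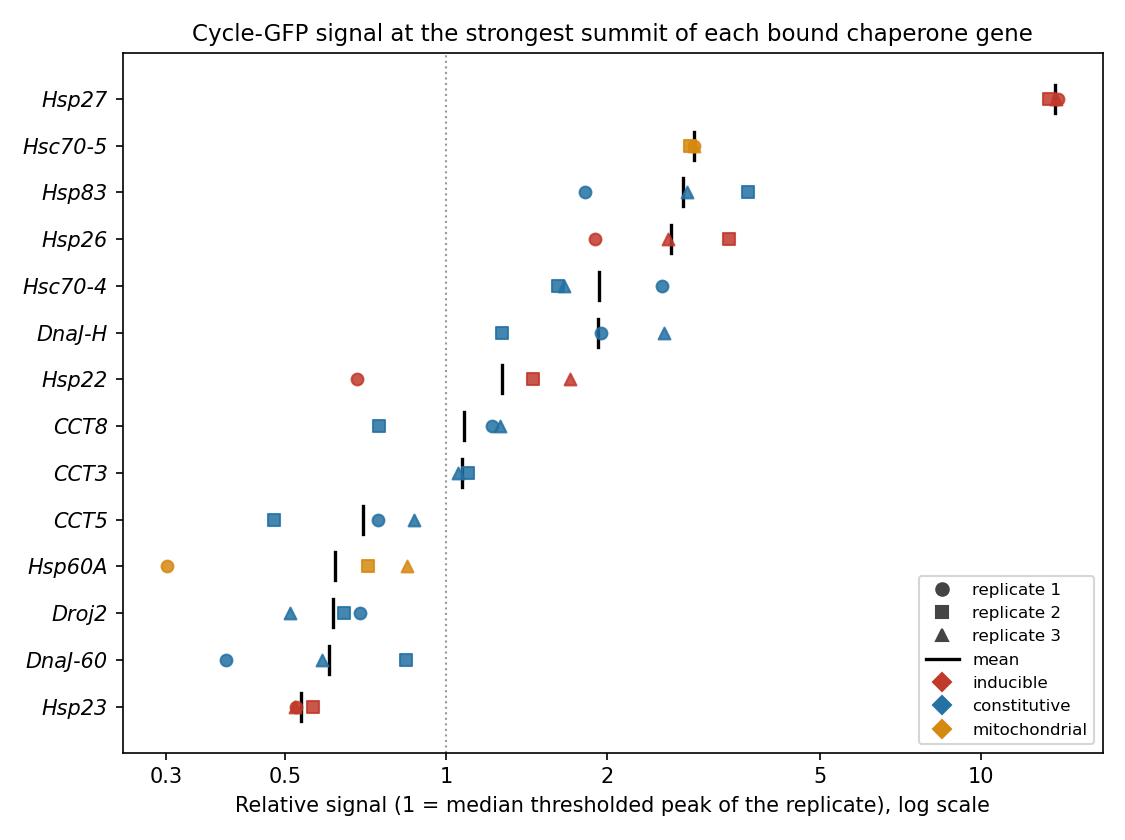
Relative signal (log axis, 1 is the median thresholded peak of a replicate) at the strongest summit of the 14 bound members; symbols are replicates, black bars are means and colours are classes. Hsp27 lies between 13.4 and 13.9 in the 3 replicates, apart from all others, and Hsp23 is lowest at a mean of 0.536.

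Among the inducible genes, Hsp27 had by far the strongest site. Hsp27 encodes a small heat shock protein of the nucleus, and its summit lay at -141 bp (negative distances are upstream of the start) in intergenic sequence. The relative signal there was 13.9 in replicate 1, 13.4 in replicate 2 and 13.8 in replicate 3, a mean of 13.7 ± 0.286 (SD, n = 3). The 3 values nearly coincide. With a signal of 2960 this peak ranked 19 of the 7227 thresholded peaks, and 36, 24 and 9 in the lists of replicates 1, 2 and 3. The next strongest member by the mean, Hsc70-5, was lower by a factor of 4.77, 4.68 and 4.74 in the 3 replicates, a mean of 4.73 ± 0.0489 (SD, n = 3).

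Hsp26, a cytosolic small heat shock protein gene transcribed from the opposite strand of the same cluster, had its summit at -86 bp. Its relative signal was 1.90, 3.37 and 2.60 in replicates 1, 2 and 3, a mean of 2.63 ± 0.739 (SD, n = 3). All 3 values exceed the typical peak, but they spread far more than those of Hsp27. Hsp27 exceeded Hsp26 by a factor of 7.33, 3.96 and 5.31 in the same replicates.

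Hsp22 encodes a small heat shock protein found in mitochondria, although its gene belongs with the inducible class. Its relative signal was 0.680, 1.45 and 1.70, a mean of 1.27 ± 0.529 (SD, n = 3), so replicate 1 was low and the others above the typical peak. The gene has starts at 9372931 and 9373997 on 3L, and the summit lay between them, at 605 and -461 bp, inside the untranslated first exon of the longer transcript. The same summit lay 605 bp past a start of CG4456 and in its untranslated 3′ end; this is the gene formerly called Hsp67Bb, which the symbol rule leaves out. Hsp23, a cytosolic small heat shock protein gene, had the weakest bound site of all members, at 30 bp past the start. Its relative signal was 0.525, 0.563 and 0.521, a mean of 0.536 ± 0.0235 (SD, n = 3), low in all 3 replicates.

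The cluster as a whole spans 14184 bp, 3L:9371511-9385694. With 3 kb on either side it held 5 thresholded and 11 pooled summits, and 4, 14 and 13 summits in the lists of replicates 1, 2 and 3. The 4 summits of replicate 1 are those of the 4 bound genes. The fifth thresholded summit, rank 5380, lay by Fdx1, a ferredoxin gene at the edge of the cluster. The thresholded summit nearest to Hsp67Bc is that of Hsp22, 1039 bp from its start and just outside the window. Hsp67Bc and Hsp67Ba, both small heat shock protein genes, had only weak pooled summits, at -294 bp with rank 18176 and at 861 bp with rank 17882 of 29484. Signal thus varied widely within the cluster: Hsp27 exceeded its neighbour Hsp23 by a factor of 26.5, 23.7 and 26.5 in replicates 1, 2 and 3.

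**Figure D2:**
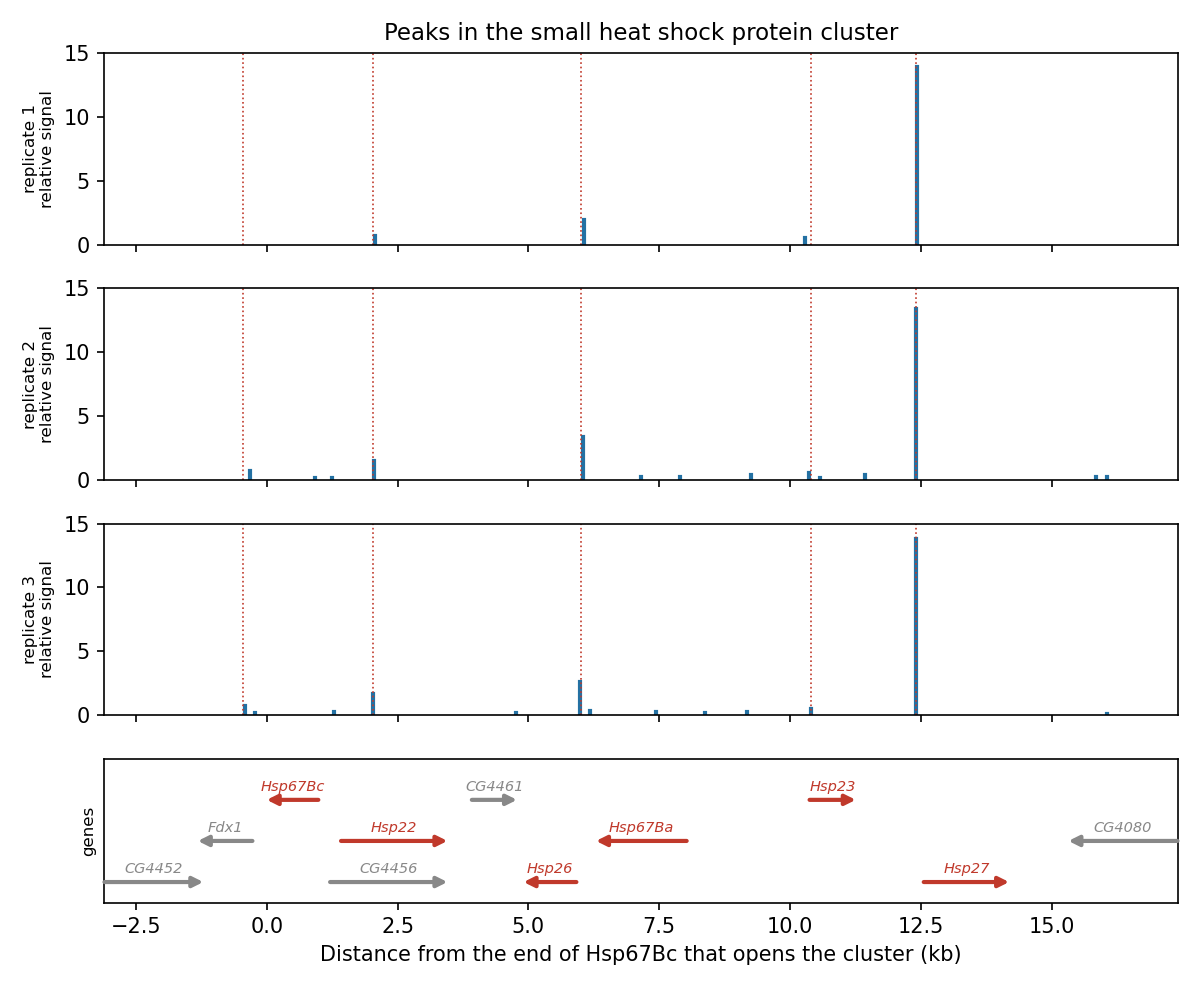
Replicate peaks across the small heat shock protein cluster: bars give the relative signal at each summit, dotted lines the 5 thresholded summits, and arrows the genes (red for members, grey for others) by distance in kb from the end of Hsp67Bc. The bar ahead of Hsp27 reaches 13.4 to 13.9 in each replicate and no other bar exceeds 3.37.

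The Hsp70 genes, which encode the main heat-induced chaperone of the fly, had no summit within 1 kb in any list. Hsp70Aa and Hsp70Ab form a pair on 3R (3R:11954163-11960909), and Hsp70Ba, Hsp70Bbb, Hsp70Bb and Hsp70Bc lie in a second locus on the same arm (3R:12465453-12511461). Within the pair itself no list held a summit. A thresholded summit of rank 1449 lay in the 3 kb past its right end, 8801 bp from its left end. It fell between CG3281 and aurA, a mitotic kinase gene, with relative signals of 1.81, 1.76 and 2.06. The second locus with its flanks held no thresholded and no pooled summit. It held single weak summits in replicate 1 (rank 23493) and replicate 2 (rank 26671), and none in replicate 3.

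The Hsp70 copies resemble each other closely, which limits what a peak list can show of them. Over the 250 bases upstream of the starts, identity in the 15 pairs of copies ran from 73.4 to 100% with a median of 84.7%. Hsp70Bb, Hsp70Bbb and Hsp70Bc were identical there, and Hsp70Aa and Hsp70Ab shared 99.2% of aligned positions. Of the words of 50 bases within 1 kb of the start, 37.4% occurred at a single place in the genome for Hsp70Aa, 36.8% for Hsp70Ab, 27.0% for Hsp70Ba, 26.8% for Hsp70Bbb, 3.23% for Hsp70Bb and 0% for Hsp70Bc. The other members were above 50%, with Hsp60D lowest at 51.8%. How reads that match several places were handled is not given in the sources used here, and the part of this in the missing Hsp70 peaks was not tested. CCT4 and the constitutive Hsp70 relatives Hsc70-1 and Hsc70-2 also had no summit in any list, and there 100% of the words were unique. With the Hsp70 copies these make 9 of 37 members without a summit in any list, or 24.3%, against 24.7% of all genes. With the 6 copies left out, 14 of 31 members (45.2%) and 4 of 7 inducible members (57.1%) were bound, against 28.6% of all genes. This leaves out only genes without a peak, so the shares could only rise.

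**Figure D3:**
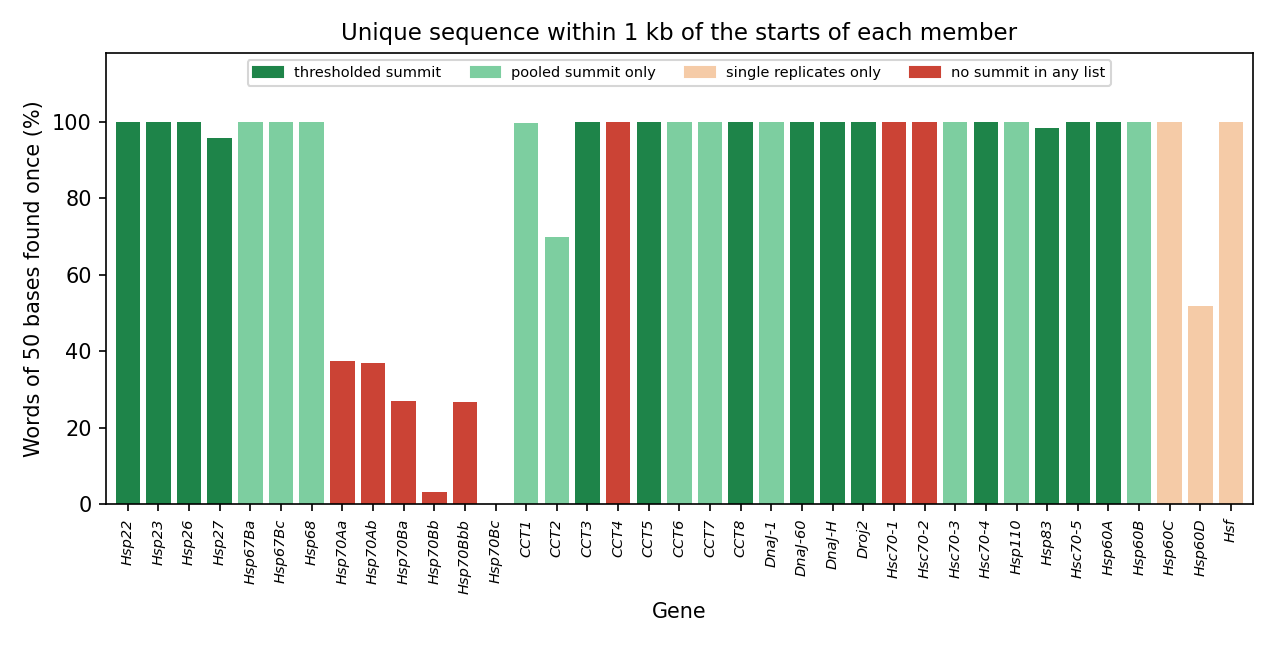
Share of 50-base words within 1 kb of the starts of each member that occur at a single place in the genome, coloured by the list that holds a summit. The 6 Hsp70 copies reach at most 37.4% and have no summit. CCT4, Hsc70-1 and Hsc70-2 also have none, and all their words are unique (100%).

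Hsp68, an inducible relative of Hsp70 elsewhere on 3R, was not bound. Its strongest pooled summit lay far from the start, at -920 bp, with rank 7836 and a signal of 102. Replicates 2 and 3 had it at ranks 6896 and 7144, and replicate 1 lacked it.

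Of the constitutive genes, Hsp83, which encodes the fly Hsp90, had the strongest site. Its relative signal was 1.82, 3.67 and 2.82 in replicates 1, 2 and 3, a mean of 2.77 ± 0.925 (SD, n = 3). The values are all above the typical peak and differ by more than those of Hsp27. The summit lay at -109 bp from the second of its 2 starts, in the untranslated first exon of the transcript that begins at 3192969 on 3L, and -616 bp from a start of CG14965. Hsc70-4, the main constitutive Hsp70 of the cytosol, had relative signals of 2.53, 1.62 and 1.66, a mean of 1.93 ± 0.513 (SD, n = 3), at -180 bp. That summit lay between Hsc70-4 and tefu, the gene of the ATM kinase, at -271 bp from the latter.

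The J-domain genes that fit the symbol rule, whose products deliver clients to Hsp70, were bound in 3 of 4 cases, where 28.6% of all genes were. DnaJ-H alone of the 3 is left when each summit is given to its nearest gene. Outside the rule, the J-domain genes mrj, CG5001, P58IPK, Csp and Sec63 were bound, and CG5504, Tpr2, jdp and wus were not. DnaJ-H had 2 thresholded summits, at -188 and -391 bp, both in an intron of its longer transcript. The stronger had relative signals of 1.95, 1.27 and 2.55, a mean of 1.92 ± 0.644 (SD, n = 3), and the weaker a mean of 1.67 ± 0.785. In replicate 3 a single peak underlies both, so those values are not separate there. The stronger summit also lay at -358 bp from Sirt1, a deacetylase gene. The weaker one, at -155 bp from Sirt1, lay nearer to that gene than to DnaJ-H. Droj2 (0.615 ± 0.0930, SD, n = 3, at -227 bp) and DnaJ-60 (0.605 ± 0.228, SD, n = 3, at -89 bp) were weak. Their summits lay closer to other starts, at -70 bp from mRpS21, which encodes a mitochondrial ribosomal protein, and 17 bp past that of spag, which encodes an Hsp90 co-chaperone.

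The CCT genes encode the subunits of a single ring that folds actin and tubulin. Of 8 genes, 3 were bound, CCT3, CCT5 and CCT8, where 28.6% of all genes were, and 7 had a pooled summit, where 55.4% of all genes did. Subunits of 1 complex fell on both sides of the threshold. CCT8 had relative signals of 1.22, 0.749 and 1.26, a mean of 1.08 ± 0.284 (SD, n = 3), at -492 bp. This is the farthest summit of any bound member, and it lay -36 bp from CG30349. CCT3 had no overlapping peak in replicate 1 and 1.10 and 1.05 in the others, a mean of 1.07 ± 0.0301 (SD, n = 2), at -401 bp and at -200 bp from CG10324. CCT5 had 0.747, 0.476 and 0.872, a mean of 0.698 ± 0.202 (SD, n = 3), at -97 bp, with Oda, the gene of ornithine decarboxylase antizyme, on the far side at -441 bp. The strongest pooled summits of CCT1, CCT2, CCT6 and CCT7 ranked 11259, 8016, 8839 and 8087, all below the thresholded list. CCT4 had no summit in any list.

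All 8 bound constitutive genes shared their strongest summit with another gene, against 1 of 4 bound inducible genes and 60.7% of all bound genes. Over all bound members 10 of 14 did, or 71.4%. When each summit was given to the gene with the nearest start only, CCT3, CCT8, DnaJ-60 and Droj2 dropped out and 4 of 18 constitutive members were left, or 22.2%, against 21.2% of all genes under the same rule. The lists cannot say which gene of such a pair a peak belongs to.

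**Figure D4:**
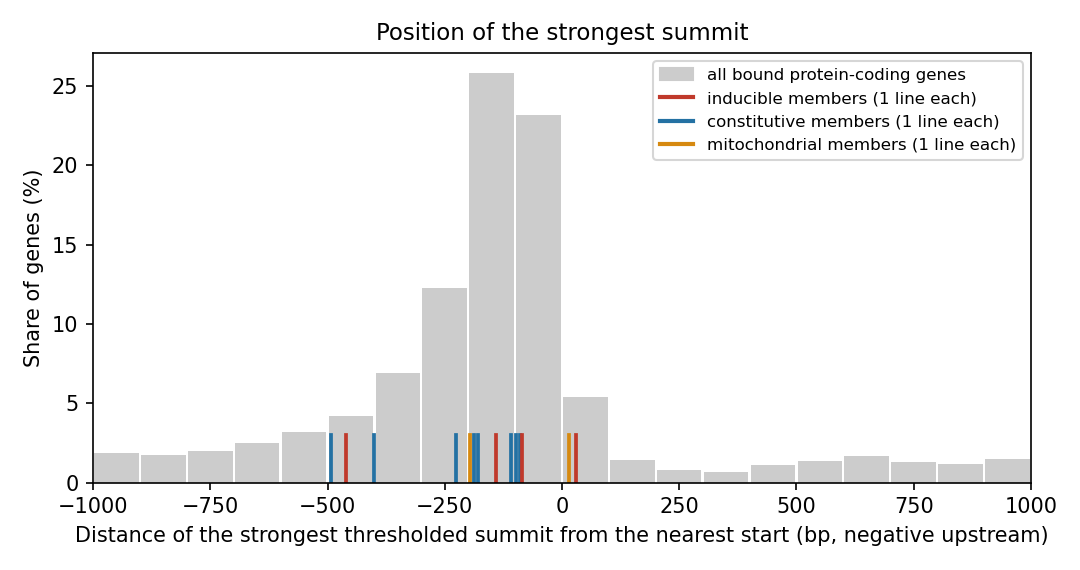
Position of the strongest thresholded summit relative to the nearest start in bp: grey bars give the share of all 3984 bound genes in bins of 100 bp, and coloured lines the 14 bound members. Members lie between -492 and 30 bp, 12 of them upstream.

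The mitochondrial chaperones were divided. By the mean, Hsc70-5, the Hsp70 of the mitochondrial matrix, had the second strongest site of all members. Its relative signals were 2.91, 2.86 and 2.91, a mean of 2.90 ± 0.0316 (SD, n = 3). This is as even across replicates as Hsp27. In replicate 2, Hsp83 (3.67) and Hsp26 (3.37) were higher than Hsc70-5. The Hsc70-5 summit lay 16 bp past a start and at -317 bp from CG8531, which begins on the other side. A second summit at -183 bp, nearer to CG8531 at -118 bp, had a mean of 1.52 ± 0.131 (SD, n = 3). Hsp60A, the chaperonin of the same compartment, was much weaker at 0.301, 0.713 and 0.846, a mean of 0.620 ± 0.284 (SD, n = 3), at -196 bp. Its paralogues were not bound: Hsp60B had a pooled summit of rank 18934, and Hsp60C and Hsp60D had a summit in replicate 1 alone, at ranks 12309 and 11216 of 30000.

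Of the members, 11 had a pooled summit but no thresholded one, or 29.7%, against 26.8% of all genes. Of these 11, 10 had a summit in both replicate 2 and replicate 3, and only Hsp60B had one in replicate 1. Replicate 1 also held fewer summits near starts over all genes, as the shares above show. Constitutive genes, which are 18 of the 37 members, were 7 of the 11: CCT1, CCT2, CCT6, CCT7, DnaJ-1, Hsc70-3 and Hsp110. Hsc70-3, the Hsp70 of the endoplasmic reticulum, had 4 pooled summits at its several starts, the strongest at rank 8333. DnaJ-1, which encodes a fly Hsp40 and is also heat-induced, had its best pooled summit at -47 bp with rank 10615. Hsp110, a nucleotide exchange factor for Hsp70, came nearest to the threshold, at rank 7332 with a signal of 109, while Hsp23 just inside it ranked 7130 with a signal of 112. These 2 genes differ little in signal although they fall on either side. Hsf had a summit in replicates 2 and 3, the strongest at ranks 11220 and 7325, but none in the pooled list.

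**Figure D5:**
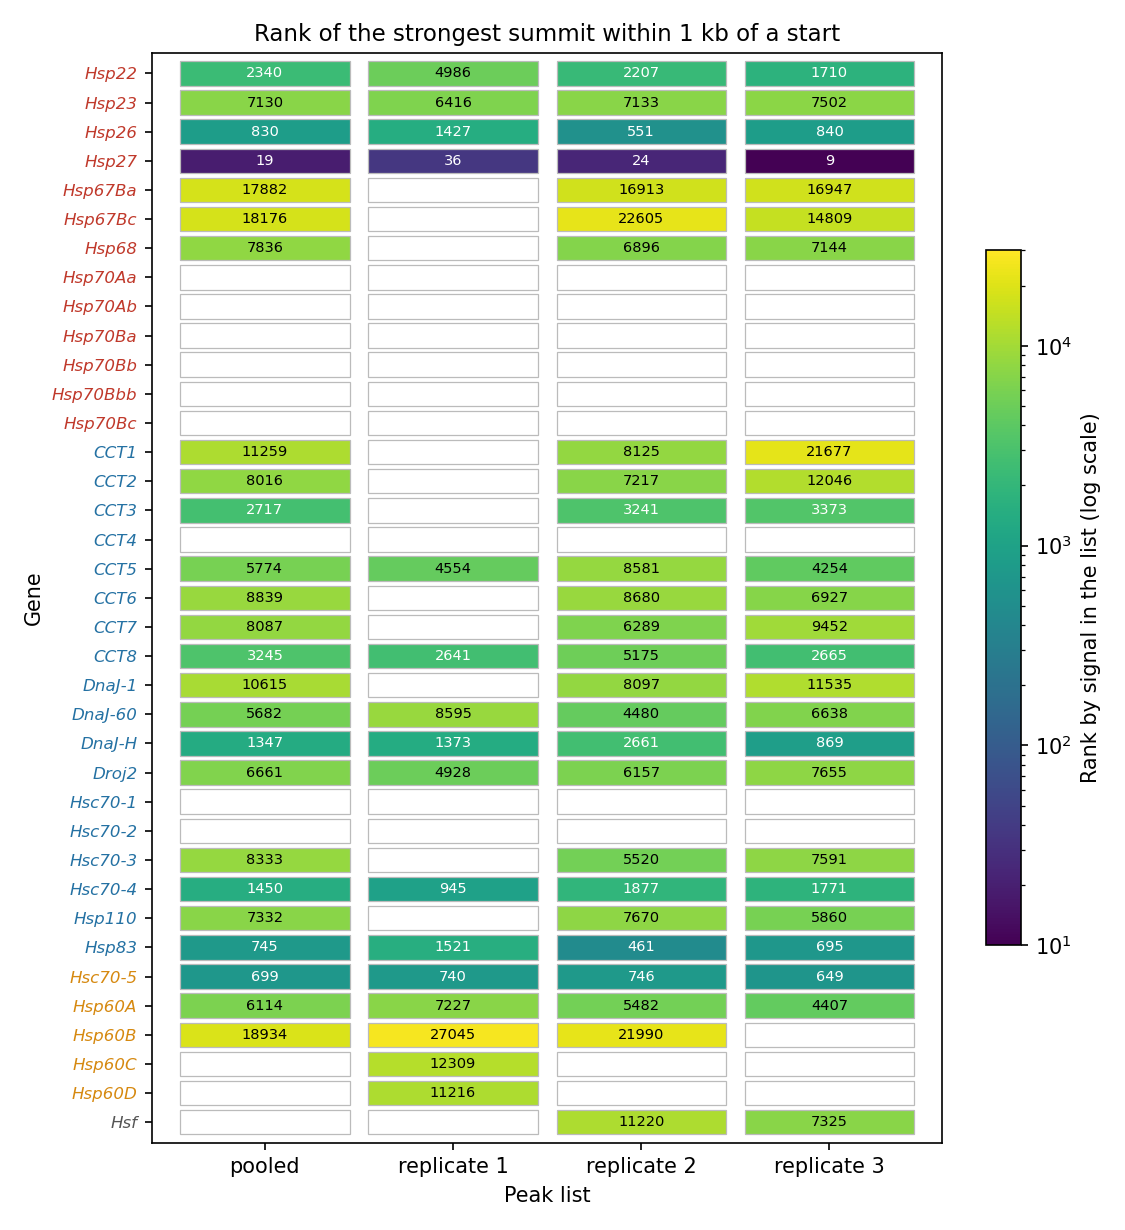
Rank by signal of the strongest summit within 1 kb of a start of each of the 37 members in the pooled list and the 3 replicate lists; white means no summit and gene names are coloured by class. Hsp27 ranks 19, 36, 24 and 9, and the 6 Hsp70 copies are white throughout.

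Replicate support for the bound members was like that of the whole list. Among the 7227 strongest peaks of each replicate, replicate 1 held a peak over the strongest summit of 11 of 14 bound members, replicate 2 of 13 and replicate 3 of 12. Over all thresholded peaks the shares were 83.0, 87.1 and 88.4%. Replicate 1 lacked CCT3, DnaJ-60 and Hsp60A, replicate 2 lacked CCT5, and replicate 3 lacked Hsp23 and Droj2. Hsp22, Hsp26, Hsp27, Hsp83, Hsc70-4, Hsc70-5, DnaJ-H and CCT8 were held in all 3.

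The promoters of the members differ in their motifs, searched on both strands from 250 bases before to 50 bases after each start. CACGTG was in 0 of 37 member promoters and in 4.20% of all 13945. It was within 100 bp of 0 of the 16 thresholded summits of members, and of 1.63% of all 7227. A pair of heat shock units was frequent, GAANNTTC in 15 of 37 promoters (40.5%, against 9.37%) and TTCNNGAA in 11 (29.7%, against 7.69%). Both counts hold the 6 Hsp70 copies, which resemble each other closely and are not 6 separate cases. Both strings read the same on either strand, and they overlap wherever 3 units follow each other. That longer element was in 7 member promoters, those of Hsp68 and the 6 Hsp70 copies, or 18.9% against 0.430%. None of these 7 genes was bound, where 28.6% of all genes were, but the copies are again not separate cases. How often other genes with the element were bound was not counted.

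At the summits themselves, GAANNTTC lay within 100 bp for 4 of 16 (Hsp26, Hsp83, Hsc70-4 and DnaJ-H, 25.0% against 6.31%) and TTCNNGAA for 2 (Hsp26 and DnaJ-H, 12.5% against 5.62%), counting for Hsp26 the bases past its start that are not printed above. The DnaJ-H summit held 3 units in a row, as did 0.360% of all summits. GAGAGA, the GAGA factor sequence, was in 7 promoters, 18.9% against 12.3%, all of them inducible (Hsp26 and the 6 Hsp70 copies). A promoter with several repeats of it counts once. TATCGATA, bound by DREF and BEAF-32, was in 5, 13.5% against 9.36%, all of them constitutive (CCT2, CCT5, DnaJ-1, Hsp110 and Hsp83). GGTCACAC and GTGCAC were in 4 promoters each, or 10.8%, against 7.70 and 5.59% of all. None of these strings lay within 100 bp of the Hsp27 summit. A match is a description of letters and does not show that a factor binds there.

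Co-chaperones and other chaperones outside the symbol rule were counted from a list of 37 genes. Of these, 15 were bound (40.5%, against 28.6% of all genes) and 31 had a pooled summit (83.8%, against 55.4%). The 6 with the highest signal were mrj and CG5001, which encode J-domain proteins, CG11267, the mitochondrial Hsp10 that works with Hsp60, stv, a BAG-domain partner of Hsp70, the prefoldin subunit gene Pfdn6 and Cnx99A, a calnexin gene. CG11267 had relative signals of 2.56, 2.40 and 2.32, a mean of 2.43 ± 0.120 (SD, n = 3), where Hsp60A, its partner, had a mean of 0.620 ± 0.284. The values of stv were 2.01, 2.06 and 2.11, a mean of 2.06 ± 0.0484 (SD, n = 3). The 3 values of either gene lie close together and above the typical peak. The strongest, mrj, had 3.50, 3.06 and 2.20, a mean of 2.92 ± 0.661 (SD, n = 3), near that of Hsc70-5 and well under Hsp27.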

How the data were processed

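ChIP-seq peaks of GFP-tagged Cycle were deposited as narrowPeak lists for 3 replicates, which the labels call biological, 1 pooled list and 1 list thresholded by the irreproducible discovery rate. Peak signal is the authors' deposited value against a control that was not analysed here. Which aligner and peak caller the authors ran is not given in the sources used here. Lists for dm6 were used; those for dm3 were not used here. Ranks in replicate 3 cover the 29967 of 29999 peaks on the 6 arms.

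The 19607 transcript starts of protein-coding genes were taken from Ensembl release 115 (build 6.54) and sequence from NCBI RefSeq Release 6. Summits were assigned to every start within 1 kb. The replicate signal of a peak was that of the replicate peak overlapping it by at least 1 bp and nearest by summit. There is 1 group, so no test was run: counts are set beside all protein-coding genes, with exact 95% intervals. All members are named, with companions by the 6 highest signals. Members and lists were chosen with earlier results of these data known. Assignment was tested on simulated data. Alternatives varied the window, the list, the starts, the assignment, the scaling and the replicates. Computation used Python 3.11.15, numpy 2.4.6, scipy 1.17.1, matplotlib 3.10.9 and biopython 1.88.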

Additional observations from a re-analysis of the deposited data

How the results depend on the processing

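The count of 14 bound members (4 inducible, 8 constitutive and 2 mitochondrial) was the same with a window of 500 bp and with the first start only. Over all genes the count fell from 3984 (28.6%) to 3455 (24.8%) and 3701 (26.5%) in these 2 settings. The pooled list gave 25 members, 7 inducible and 15 constitutive, against 7725 genes. The 3613 strongest thresholded peaks gave 9 members, 5 constitutive and 1 mitochondrial, against 2339 genes. Counting Hsp83 and DnaJ-1, which heat also induces, as inducible gave 5 of 15 inducible and 7 of 16 constitutive members. Nearest genes only left 10 members (27.0%) and 4 constitutive ones (22.2%), against 21.2% of all genes. Leaving out each replicate in turn, by keeping the peaks that the strongest peaks of both others overlap, gave 9 to 11 members, 3 to 4 inducible, 5 to 6 constitutive and 1 to 2 mitochondrial, and 2770 to 3380 of all genes. Without replicate 2, 9 members were left, without replicate 3, 10, and without replicate 1, 11. This rule only removes peaks from the same thresholded list, so the counts could only fall. The falls therefore do not show that the result depends on a replicate. In each of these settings the share of all members stayed above the share of all genes, a difference that was not tested. Dividing by the median of a replicate's whole list put the median relative signal of bound members at 4.47 in place of 1.17, since these lists reach down into background regions. No paired analysis was possible because there is only 1 group. Read depth is unknown, so weak peaks and missing ones cannot be weighed by coverage.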
